A study of Mus musculus with 12 samples.

Results

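The ETS family is a group of transcription factors named after the E26 virus oncogene and defined by a shared DNA-binding domain that recognises the core GGAA. Described here are 10 of its genes, chosen by name from the 22298 genes counted in a mouse breast cancer cell line: Ets1, Ets2, Etv1, Etv4, Etv5, Etv6, Elf3, Elk3, Gabpa and Erf. All 10 passed the filter on low counts, among 11904 genes that did. The choice used gene names and no measured value, but it was made with earlier results of these data known.

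RNA was sequenced from 4T1 cells, a mammary carcinoma line from a BALB/c mouse. Cop1 was targeted with either of a pair of guide RNAs, sgRNA1 and sgRNA2, and control cells had a guide to the Rosa26 locus, which is often cut as a neutral site. Each of the 3 populations was kept for 24 hours with 20 ng/ml of the cytokine interferon gamma (IFNγ) or with vehicle. Each of the 6 groups held 2 libraries, and a library held 19378070 to 32609717 gene counts. The control is 1 population per treatment, and where the guides cut and whether the populations were pools or clones is not given in the sources used here. Nothing in the labels says that the libraries of a group came from separate cultures. The p-values therefore reflect only how far these libraries differ, and that spread may be technical.

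COP1 is the substrate-recognising subunit of an E3 ubiquitin ligase. Among its best known substrates are ETS proteins, in particular ETV1, ETV4 and ETV5 (the PEA3 subfamily) and ETS1 and ETS2, which COP1 marks for degradation, while Tribbles pseudokinases act as adaptors for other substrates. ETS proteins are also end points of the RAS and ERK kinase cascade, and family members can activate or repress. The sequencing measured mRNA. It gives no reading of ETS protein, and in a bulk sample fewer cells of a kind and less RNA per cell cannot be told apart.

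Cop1 mRNA was lower with both guides. In vehicle it stood at 94.0 ± 6.0 CPM in Rosa26 cells, 61.1 ± 2.83 with sgRNA1 and 34.6 ± 0.204 with sgRNA2 (CPM, the usual depth-scaled count, here relative to the TMM-scaled library total; mean ± SD, n = 2). With IFNγ it stood at 81.9 ± 2.07, 60.4 ± 0.388 and 32.95 ± 0.935 CPM in the same order. The sgRNA2 cells thus had less Cop1 mRNA than the sgRNA1 cells, by -0.82 ± 0.06 on the log2 scale in vehicle (± SE, as after every log2 change below). Irf1, an IFNγ response gene taken as a check of the treatment, was higher with IFNγ in Rosa26 cells (by 3.54 ± 0.04 on the log2 scale) and in Cop1-guide cells (by 3.599 ± 0.028). The 8 epithelial markers checked were all expressed, with summed levels of 2990 to 3730 CPM per library, while 12 leukocyte markers summed to at most 12.8 CPM and 5 of them had 0 counts in every library. The endothelial and fibroblast markers summed to 16.4 to 24.7 CPM, nearly all of it from Pdgfra.

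The 4T1 cells expressed a broad set of ETS genes. Levels of different genes are compared here only per length, as CPM per kilobase of merged exons. In Rosa26 vehicle cells the order was Elk3 at 38.6 ± 1.5, Ets1 at 37.6 ± 0.874, Erf at 31.2 ± 0.451, Etv4 at 26.8 ± 0.682 and Ets2 at 23.5 ± 0.121 CPM per kilobase. Below these came Etv5 at 16.7 ± 0.359, Gabpa at 14.3 ± 0.662, Etv6 at 7.39 ± 0.00399, Elf3 at 7.26 ± 0.132 and Etv1 at 4.24 ± 0.0731 (SD, n = 2). The levels of Elk3 and Ets1 overlapped between libraries, and Etv6 and Elf3 differed by about 1 SD of Elf3. The other neighbours in this order did not overlap. Etv1 is long in the annotation, with 13296 bases of merged exons against 2217 for Elf3, so a level per kilobase depends on how much of the annotated length the cells transcribe.

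Of 16 other ETS genes, 7 passed the filter: Elf1, Elf2, Elf4, Ehf, Elk1, Elk4 and Etv3. Their levels in Rosa26 vehicle cells lay between 4.79 and 12.4 CPM per kilobase, below 7 of the 10 genes described here. Erg, Fev and Spdef had 0 counts in every library. Fli1, Etv2, Elf5, Spi1, Spib and Spic had at most 5 counts in any library. Fli1 and Erg are known from endothelial and blood cells and Spi1, Spib and Spic from the blood lineage.

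**Figure D1:**
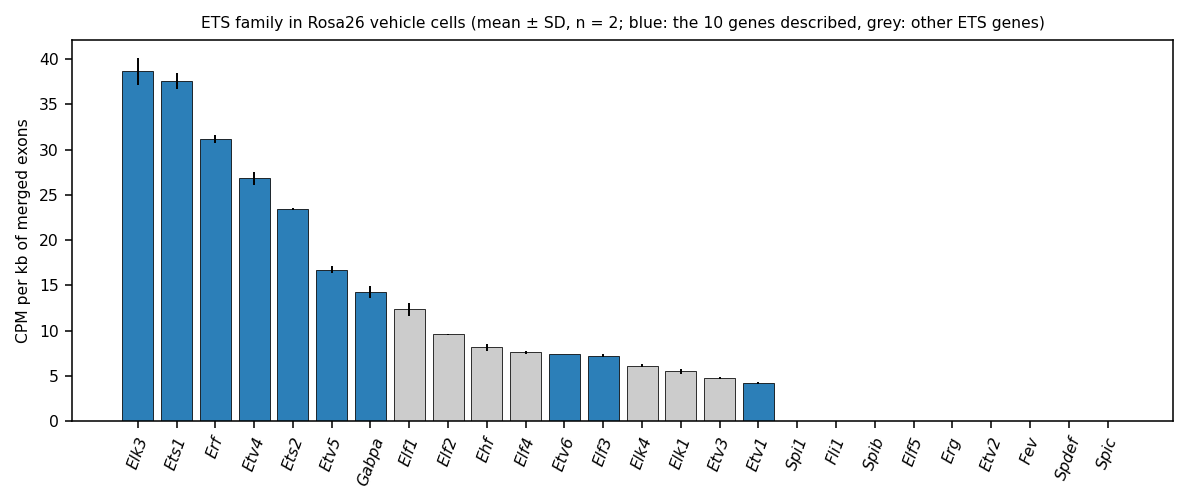
Mean level of 26 ETS genes in Rosa26 vehicle cells, in CPM per kilobase of merged exons (bars; error bars are the SD of 2 libraries), with the 10 genes described here in blue. Elk3 and Ets1 stood highest at 38.6 and 37.6, and 9 other family genes were at or near 0.

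Loss of Cop1 in vehicle went with lower mRNA of 2 of the 10 genes, Ets2 and Etv5, and with a call for none in the upward direction. A gene was called at an adjusted p under 0.05 in the quasi-likelihood test of edgeR, with the Benjamini-Hochberg adjustment over all genes tested. By this rule 35.8% of all genes tested were called in this comparison (16.6% higher, 19.2% lower), and 4.73% were called with a change of at least 1.5-fold. Of the ETS genes 20% were called, a smaller share, and Ets2 alone reached 1.5-fold. Their median log2 change was -0.01, beside -0.01 over all genes, and their median change regardless of sign was 0.05, beside 0.14.

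Ets2 (chromosome 16, 95702075 to 95721051 on the plus strand, 10 exons; positions here are those of mm10 in GENCODE M21) encodes a phosphorylation-dependent activator at the end of the ERK cascade. Its level was 135 and 136 CPM in the Rosa26 vehicle libraries, 77.3 and 74.2 with sgRNA1, and 89.2 and 93.9 with sgRNA2. Both guides lay well below Rosa26 with no overlap, and sgRNA1 below sgRNA2. The share of all genes whose libraries separate in this way was not computed, here or for the genes below. The log2 change over both guides was -0.70 ± 0.04 (95% interval -0.78 to -0.62, adjusted p = 2.04e-18), leaving 61.7% of the Rosa26 level. Each guide alone gave -0.84 ± 0.05 with sgRNA1 and -0.57 ± 0.05 with sgRNA2, measured against the same Rosa26 libraries. The guide with more Cop1 mRNA left thus had the lower Ets2. COP1 protein was not measured, so the mRNA does not rank the guides by loss of COP1 function. The difference in Ets2 between guides was itself called (0.27 ± 0.05, adjusted p = 0.00013). That was 1 of 10 genes, beside 5.99% of all genes tested (2.58% higher, 3.41% lower in sgRNA2).

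Etv5 (chromosome 16, 22381309 to 22439719, minus strand, 13 exons) belongs with Etv1 and Etv4 to the PEA3 subfamily, whose proteins are COP1 substrates and whose transcripts respond to receptor tyrosine kinase signals. Its vehicle levels were 67.7 and 69.7 CPM in Rosa26 cells, 54.7 and 60.2 with sgRNA1 and 64.5 and 52.9 with sgRNA2. All 4 Cop1-guide libraries lay below both Rosa26 libraries, with the widest spread in sgRNA2. The log2 change was -0.25 ± 0.06 (adjusted p = 0.000834). With the libraries of each population summed, so that the guides are the only replicates, it was -0.25 with an adjusted p of 0.0645, and the call ended.

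The other subfamily members were not called. Etv4 (chromosome 11, 101769742 to 101785371, minus strand) was at 84.7 and 81.8 CPM in Rosa26 vehicle cells, 85.0 and 82.9 with sgRNA1 and 83.5 and 83.1 with sgRNA2. These groups overlapped, and the 95% interval of the log2 change ran from -0.08 to 0.10. For Etv1 (chromosome 12, 38779380 to 38870484, plus strand) the interval ran from -0.12 to 0.09 and for Ets1 (chromosome 9, 32636221 to 32757820, plus strand), a founding member of the family, from -0.06 to 0.05. A change of any size within these limits is compatible with these libraries.

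The remaining genes cover the repressors and housekeeping members of the family. Erf and Etv6 encode repressors, Elk3 a serum response cofactor that represses until ERK phosphorylates it, Gabpa the DNA-binding subunit of a factor for nuclear-encoded mitochondrial genes, and Elf3 an epithelial activator. None was called in vehicle, with log2 changes from -0.09 for Elf3 to 0.05 for Erf. Etv6 was at 44.2 and 44.2 CPM in Rosa26 cells and at 40.6 to 43.1 in the 4 Cop1-guide libraries. Its change of -0.08 ± 0.06 was not called (adjusted p = 0.257).

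**Figure D2:**
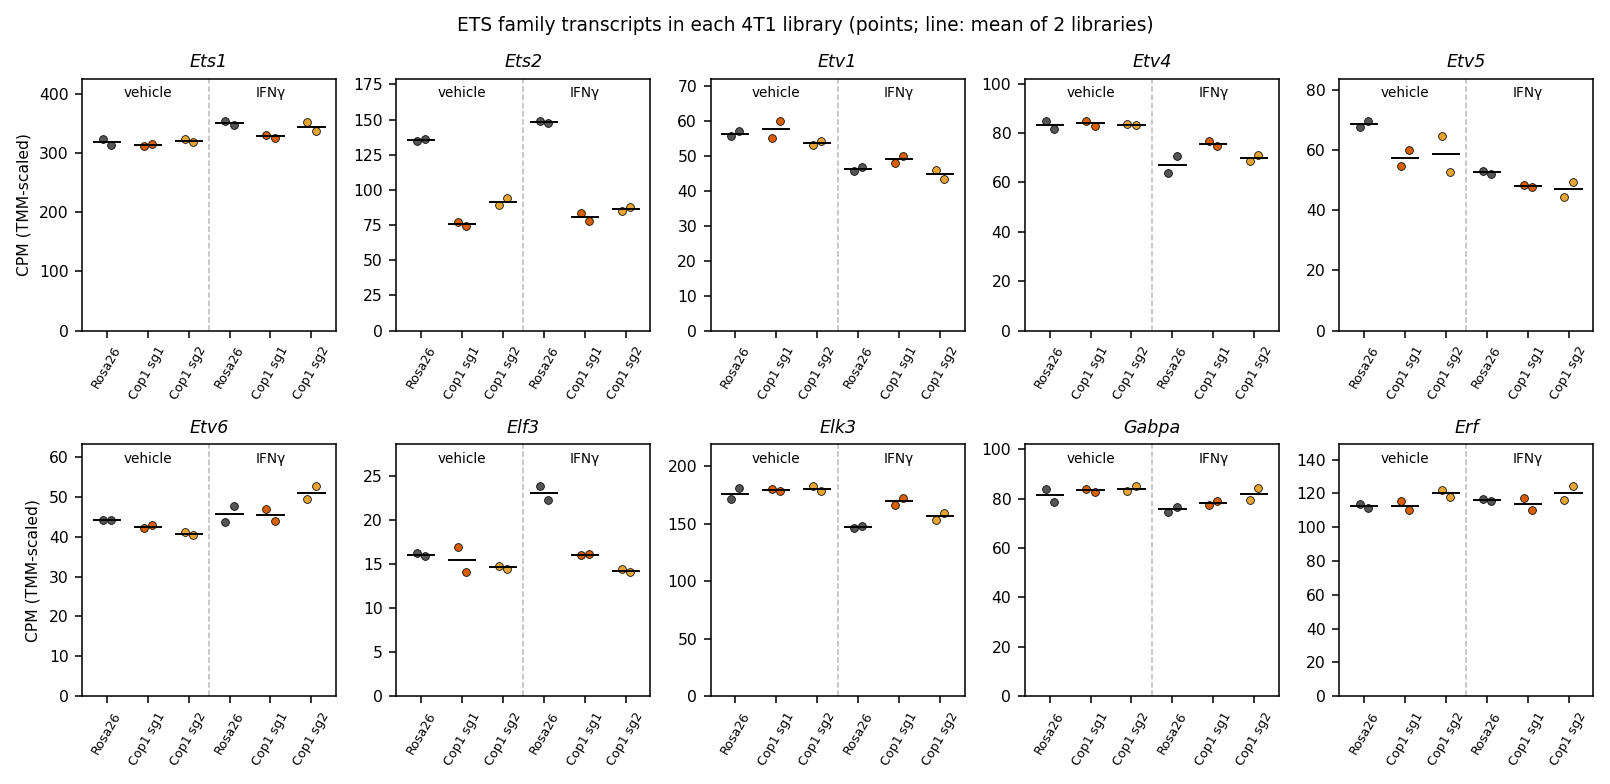
Level of each of the 10 ETS genes in each library, in CPM on axes that start at 0 (points; the line is the mean of 2 libraries), for Rosa26, sgRNA1 and sgRNA2 cells in vehicle and with IFNγ. Ets2 is lower in all Cop1-guide libraries under both treatments, and Elf3 is high only in the Rosa26 libraries with IFNγ, at 23.9 and 22.3 CPM.

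Under IFNγ, Cop1-guide cells differed from Rosa26 cells in 4 ETS genes: Ets2 and Elf3 were lower, and Elk3 and Etv4 slightly higher. The share called, 40%, was close to the 40.6% of all genes tested (19.8% higher, 20.7% lower). Changes of at least 1.5-fold were called for Ets2 and Elf3, 2 of 10, beside 5.75% of all genes. The median log2 change of the 10 genes was 0.01, and 0.10 regardless of sign beside 0.15 over all genes.

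Ets2 was at 149 and 147 CPM in the treated Rosa26 libraries, 83.8 and 77.9 with sgRNA1 and 85.2 and 88.1 with sgRNA2. Again no Cop1-guide library reached a Rosa26 library, and the guides lay closer together than in vehicle. The log2 change was -0.82 ± 0.04 (adjusted p = 5.58e-21), or 56.5% of the Rosa26 level. In the 12 alternative analyses of each treatment the Ets2 call held every time, also with the libraries of each population summed (adjusted p = 0.00619 in vehicle and 0.00169 with IFNγ).

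Elf3 (chromosome 1, 135253575 to 135258568, minus strand, 9 exons) encodes an activator of epithelial genes that is known to be induced by inflammatory cytokines. Its treated levels were 23.9 and 22.3 CPM in Rosa26 cells, 16.0 and 16.1 with sgRNA1 and 14.5 and 14.1 with sgRNA2. All 4 Cop1-guide libraries lay below both Rosa26 libraries and in the range of the vehicle libraries. The log2 change was -0.61 ± 0.09 (95% interval -0.78 to -0.43, adjusted p = 1.89e-07), and it was called in all 12 alternatives (highest adjusted p = 0.00935). Part of an Elf3 exon is shared with Gm26642 on the other strand, and without a stated strand setting of the counting their reads cannot be told apart.

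Elk3 (chromosome 10, 93247414 to 93311135, minus strand, 5 exons) was at 146.5 and 147.5 CPM in treated Rosa26 cells, 166 and 172.5 with sgRNA1 and 153 and 159 with sgRNA2. Both guides were above Rosa26, sgRNA1 more so. The log2 change was 0.14 ± 0.03 (adjusted p = 0.000447), a call that ended with the populations summed (adjusted p = 0.199). Etv4 was at 63.9 and 70.5 CPM in Rosa26, 76.6 and 74.6 with sgRNA1 and 68.7 and 71.2 with sgRNA2. Here the groups overlapped, and the change of 0.11 ± 0.05 (adjusted p = 0.0475) was lost in 8 of 12 alternatives, among them those without Rosa26 IFNγ replicate 1 and with DESeq2 (adjusted p from 0.0132 to 0.628).

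Etv5 was again lower in every Cop1-guide library, at 44.5 to 49.4 CPM against 53.1 and 52.1, but its change of -0.15 ± 0.06 did not pass the test (adjusted p = 0.0517), though it did without sgRNA2 IFNγ replicate 2, with no low-count filter and with only the compared groups in the fit. Ets1, Etv1, Etv6, Gabpa and Erf were not called, with log2 changes from -0.06 to 0.08, and Ets1 was called without sgRNA2 IFNγ replicate 1 (-0.07, adjusted p = 0.0426). Between the guides under IFNγ, Elk3 alone was called, lower with sgRNA2 (-0.12 ± 0.04, adjusted p = 0.0411), 1 of 10 beside 9.41% of all genes (5.07% higher, 4.33% lower). That call was lost without any one of the 4 libraries (sgRNA1 IFNγ replicate 1 or 2, sgRNA2 IFNγ replicate 1 or 2) and with DESeq2. The guide difference in Ets2 under IFNγ was 0.10 ± 0.05 and not called (adjusted p = 0.222).

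**Figure D3:**
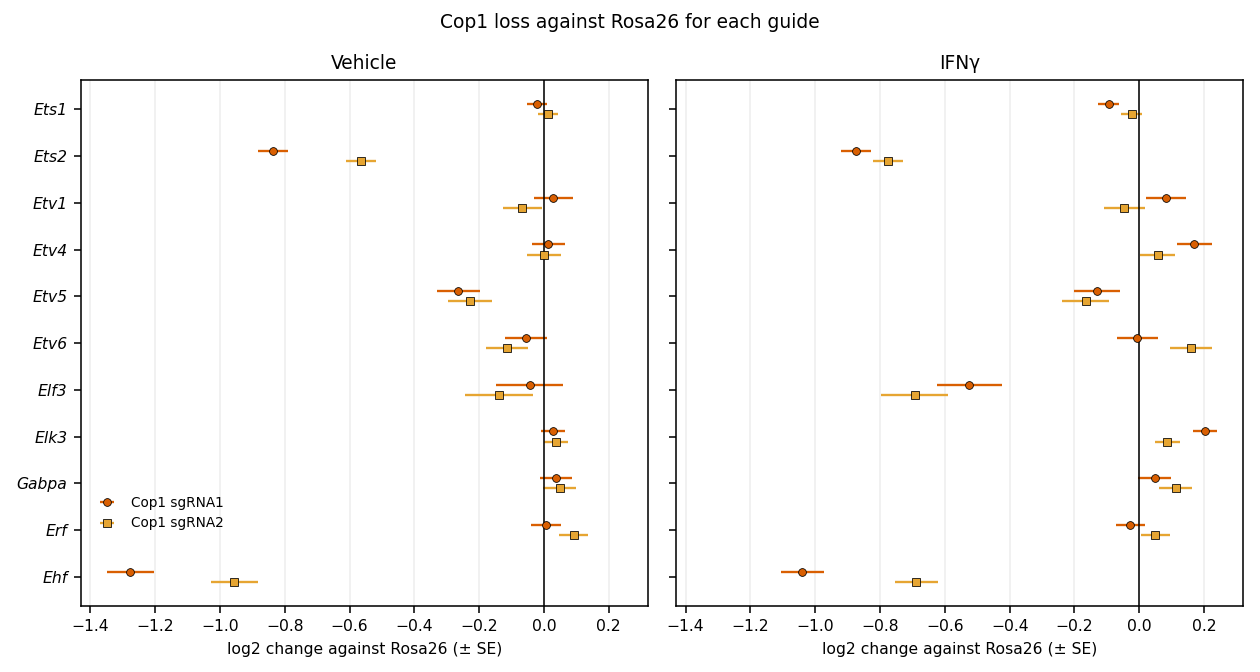
Log2 change against Rosa26 of the 10 ETS genes and of Ehf, for each guide in vehicle (left) and with IFNγ (right); points are estimates and bars their SE, and both guides share the Rosa26 libraries. Ets2 and Ehf lie far left of 0 with both guides in both panels, and Elf3 in the IFNγ panel, at -0.53 and -0.69.

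IFNγ itself moved most of these genes in Rosa26 cells, by small amounts. Of the 10, 7 were called, Ets1, Ets2 and Elf3 higher and Etv1, Etv4, Etv5 and Elk3 lower. That is 70%, against 32.8% of all genes tested (16.6% higher, 16.2% lower). None reached 1.5-fold, which 7.08% of all genes did, and the median change regardless of sign was 0.20, beside 0.15 over all genes. In the Cop1-guide cells 6 were called, Ets1 and Etv6 higher and Etv1, Etv4, Etv5 and Elk3 lower. That compares with 34.2% of all genes (18.1% higher, 16.1% lower). Again none reached 1.5-fold, beside 6.19% of all genes. The median change of the 10 genes regardless of sign was 0.11, the same as the 0.11 over all genes.

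The whole PEA3 subfamily was lower with IFNγ. Etv5 stood at 67.7 and 69.7 CPM in Rosa26 vehicle libraries and at 53.1 and 52.1 with IFNγ, a log2 change of -0.38 ± 0.07 (adjusted p = 2.02e-05). Etv4 changed from 84.7 and 81.8 to 63.9 and 70.5 CPM (-0.31 ± 0.05, adjusted p = 7.25e-06), and Etv1 from 55.7 and 57.0 to 45.8 and 46.9 CPM (-0.28 ± 0.06, adjusted p = 0.000276). The treated Rosa26 libraries of these genes lay below the vehicle libraries, in a comparison of 2 against 2 libraries in which 16.2% of all genes tested were called lower. In Cop1-guide cells the changes were -0.29 ± 0.05 for Etv5, -0.20 ± 0.04 for Etv4 and -0.25 ± 0.04 for Etv1.

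Elk3 followed the same direction, from 171 and 181 CPM in Rosa26 vehicle cells to 146.5 and 147.5 with IFNγ (-0.26 ± 0.04, adjusted p = 4.5e-07), and by -0.14 ± 0.03 in Cop1-guide cells. Ets1 went the other way, from 323.5 and 313 to 354 and 347 CPM (0.14 ± 0.03, adjusted p = 0.000379), and by 0.09 ± 0.02 in Cop1-guide cells. With the populations summed, calls of the IFNγ responses remained for Etv5 and Elf3 in Rosa26 cells (adjusted p = 0.0196 and 0.037) and for Etv5 in Cop1-guide cells (adjusted p = 0.0135), while the others ended.

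Elf3 was the 1 ETS gene of the 10 with a called difference in IFNγ response between the populations. In Rosa26 cells it went from 16.3 and 15.9 CPM to 23.9 and 22.3 CPM, a log2 change of 0.52 ± 0.10 (adjusted p = 5.41e-05). In Cop1-guide cells the vehicle libraries, at 16.9, 14.0, 14.8 and 14.5 CPM, overlapped the treated ones at 16.0, 16.1, 14.5 and 14.1 CPM. Their log2 change was 0.00 with a 95% interval of -0.15 to 0.15. The difference between the responses, tested as an interaction, was -0.52 ± 0.12 (95% interval -0.77 to -0.26, adjusted p = 0.007), and was the 1 call among the 10 genes, beside 5.74% of all genes tested (3.38% higher, 2.36% lower). The call ended without Rosa26 vehicle replicate 2 and without Rosa26 IFNγ replicate 1. Over the alternatives the interaction ran from -0.58 to -0.44. With the populations summed it was -0.52, in a fit with 1 Rosa26 sample per treatment that is too small to decide an interaction.

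RefSeq promoter windows in the build GRCm38.p6, from 250 bases before to 50 after a start site, matched 8 of the 10 genes. Ets1 and Etv4 had none. The part of the Elf3 window that lies before the gene's first annotated exon is printed because Elf3 had the called interaction, with GGAA on either strand in capitals. It spans chr1:135258569-135258722 on the minus strand, positions -250 to -97 from the RefSeq start.
Elf3: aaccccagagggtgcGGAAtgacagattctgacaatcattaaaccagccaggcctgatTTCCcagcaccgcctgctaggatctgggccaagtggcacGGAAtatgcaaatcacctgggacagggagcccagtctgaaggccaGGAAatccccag

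The core GGAA occurs 4 times there, but 96.0% of all 32851 windows hold it on 1 strand or the other. The longer ETS core CCGGAA (in 14.9% of windows) was not in the Elf3 window. Nor were the interferon gamma activated site GAS with the letters TTCNNNGAA (8.3%) and the core of the interferon-stimulated response element (3.44%). The AP-1 letters TGANTCA (7.81%) and a strict form of the kB motif of NF-kB (1.47%) were absent too. Of the members' windows, Gabpa held CCGGAA once, and Etv6 held both interferon motifs. No match says only that these letters are not in this window. Looser forms of the NF-kB motif were not searched. The last GGAA printed for Elf3, with the bases after it, fits a looser form when read on the other strand. It has a G where the strict form has an A. The share of all windows with the looser form was not counted, and binding was not tested.

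Etv6 (chromosome 6, 134035700 to 134270158, plus strand, 8 exons) was called higher with IFNγ in Cop1-guide cells. In Rosa26 cells it was at 44.2 and 44.2 CPM in vehicle and 43.6 and 47.8 with IFNγ, and was not called (0.05 ± 0.07, adjusted p = 0.62). In Cop1-guide cells it went from 42.1 and 43.1 to 46.9 and 44.1 CPM with sgRNA1 and from 41.1 and 40.6 to 49.5 and 52.7 CPM with sgRNA2. The treated libraries lay above the vehicle ones with both guides, by 0.10 ± 0.06 and 0.32 ± 0.07, or 0.21 ± 0.05 over both (adjusted p = 0.000304). The difference from the Rosa26 response, 0.16 ± 0.08, was not called (adjusted p = 0.269). The first 30 bases from its start site, chr6:134035700-134035729 on the plus strand, are printed because they hold the response element letters and then the GAS letters, in capitals and read on the strands as shown.
Etv6: ttctgccTTTCAGTTTCtctcTTCCAGGAA

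Ets2 also had different values of its IFNγ response, 0.13 ± 0.04 in Rosa26 cells (adjusted p = 0.0208) and 0.00 ± 0.03 in Cop1-guide cells (adjusted p = 0.92). The latter value averages guides of opposite sign, 0.09 ± 0.05 with sgRNA1 and -0.08 ± 0.05 with sgRNA2. The Rosa26 call was lost in 6 of 10 alternatives, including those without Rosa26 vehicle replicate 1 or 2 or Rosa26 IFNγ replicate 1 or 2 (adjusted p from 0.00572 to 0.572). The interaction was -0.12 ± 0.06 and not called (adjusted p = 0.213). Gabpa (chromosome 16, 84834925 to 84863779, plus strand, 10 exons) and Erf (chromosome 7, 25242561 to 25250761, minus strand, 4 exons) were called in none of the 7 comparisons. Their group means spanned 75.6 to 84.0 and 112.5 to 120.2 CPM. Elk3, Gabpa and Etv6 share exon sequence with the genes Cdk17, Atp5j and Gm17089 on the other strand, so their counts may hold reads of these genes.

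**Figure D4:**
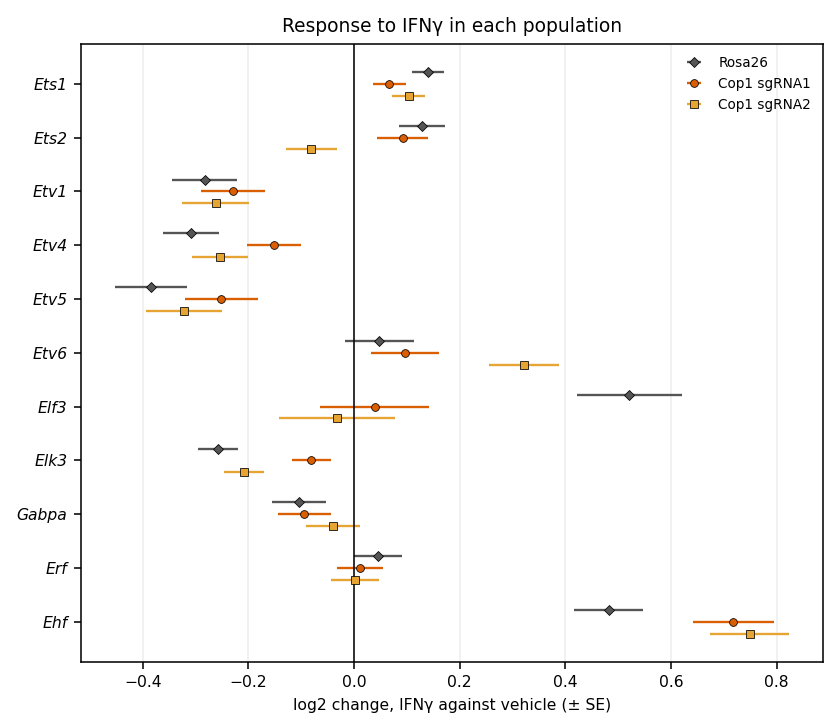
Log2 change with IFNγ against vehicle of the 10 ETS genes and of Ehf in Rosa26, sgRNA1 and sgRNA2 cells; points are estimates and bars their SE. Etv1, Etv4, Etv5 and Elk3 lie left of 0 in all 3 populations, and Elf3 lies at 0.52 in Rosa26 cells and near 0 with both guides.

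Among the ETS genes outside the 10, Ehf had the clearest difference. Ehf (chromosome 2, 103263433 to 103303278, minus strand) encodes an epithelial factor of the same subfamily as Elf3. Its vehicle levels were 43.9 and 47.1 CPM in Rosa26 cells, 18.3 and 19.4 with sgRNA1 and 23.9 and 23.1 with sgRNA2. With IFNγ they were 61.6 and 65.5, 31.2 and 30.6, and 39.9 and 39.0 CPM. The Cop1-guide libraries were below Rosa26 under both treatments, with log2 changes of -1.11 ± 0.06 (adjusted p = 1.3e-18) and -0.86 ± 0.06 (adjusted p = 1.94e-16), and both calls held with the populations summed. Ehf was called higher with IFNγ in Cop1-guide cells (0.73 ± 0.05, adjusted p = 2.3e-15) as well as in Rosa26 cells (0.48 ± 0.07, adjusted p = 6.71e-08). The Rosa26 call ended with the populations summed (adjusted p = 0.209), and the interaction was not called (0.25 ± 0.08, adjusted p = 0.0688).

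Of the 7 other ETS genes tested, Cop1 loss called 2 lower in vehicle (Ehf and Elf4) and 3 lower with IFNγ (Ehf, Elf1 and Etv3), and none higher. These are 28.6% and 42.9% of the 7, near the 35.8% and 40.6% of all genes called in the same comparisons. Elf4 was at -0.20 ± 0.05 (adjusted p = 0.0031) and lost its call without Rosa26 vehicle replicate 2. IFNγ called 4 of the 7 higher and none lower in Rosa26 cells, among them Elf1 (0.25 ± 0.05) and Elk4 (0.22 ± 0.06), beside 16.6% of all genes called higher and 16.2% lower. In Cop1-guide cells it also called 4 of the 7 higher (among them Ehf, Elf1 and Elf4) and none lower, beside 18.1% and 16.1% of all genes. Elk4 lost its call in Rosa26 cells without Rosa26 vehicle replicate 1 or Rosa26 IFNγ replicate 2. With the populations summed, the Cop1-loss calls of Elf4 in vehicle and of Elf1 and Etv3 with IFNγ ended. So did the Rosa26 IFNγ calls of Elf1 and Elk4. Of the IFNγ calls in Cop1-guide cells, those of Elf1 and Elf4 ended and that of Ehf held.

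Epithelial markers moved in both directions beside these changes. In vehicle 4 of 8 rose with Cop1 loss and 3 fell, beside 35.8% of all genes called, with Epcam at 0.30 ± 0.03 and Cdh1, which encodes E-cadherin, at -0.48 ± 0.03. With IFNγ 4 rose and 4 fell, beside 40.6% of all genes called, with Krt18 at 0.45 ± 0.02 and Cldn4 at -0.51 ± 0.03. Their summed level was 3430 to 3510 CPM in Rosa26 vehicle libraries against 3670 to 3730 in Cop1-guide vehicle libraries. It was 2990 to 3000 CPM with IFNγ in Rosa26 cells against 3150 to 3230. The part of these differences in the results for Elf3 and Ehf was not tested.

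Ets2 and Elf3 had the widest range of level among the ETS genes described here with at least 5 CPM on average. Other tested genes were compared with them over the 12 libraries by Pearson correlation of log2 CPM. The genes with a profile most like that of Ets2 were Plscr2 (0.99), Map6 (0.99) and Adh7 (0.99). Plscr2, for example, was at 66.8 and 74.1 CPM in Rosa26 cells in vehicle and with IFNγ and at 34.0 to 40.6 CPM in the Cop1-guide groups. For Elf3 they were Pnrc1 (0.95), Eif1 (0.93) and Adamts4 (0.93), with Adamts4 at 22.7 CPM in treated Rosa26 cells and 11.3 to 14.5 CPM in the other 5 groups. These are descriptions of 6 group means, given with no test.

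Genes that act with ETS proteins or COP1 were counted from lists. Of 9 ETS partners and repressors, Cop1 loss in vehicle called 1 higher and 7 lower, beside 35.8% of all genes. Gabpb1, which encodes the partner subunit of the GABPA protein, rose by 0.30 ± 0.06 (adjusted p = 5.48e-05), while Gabpb2, its paralogue, fell by 0.17 on the log2 scale (adjusted p = 0.000226). Atxn1l, a cofactor of the ETS-gene repressor CIC, was at -0.21 ± 0.04 (adjusted p = 1.54e-05), and Ep300, the acetyltransferase coactivator, at -0.22 ± 0.04 (adjusted p = 0.000157). With IFNγ 2 were higher and 4 lower, beside 40.6% of all genes called. All changes on this list were under 1.5-fold, and none of these 4 vehicle calls held with the populations summed.

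Of 10 genes of the COP1 ligase and its adaptors, Cop1 itself included, 4 were higher and 3 lower in vehicle, beside 16.6% of all genes higher and 19.2% lower. With IFNγ 5 were higher and 3 lower, beside 19.8% and 20.7% of all genes. The Tribbles adaptors split: Trib1 rose from 89.7 ± 0.809 CPM in Rosa26 vehicle cells to 132 ± 2.90 with sgRNA1 and 129 ± 3.29 with sgRNA2, and Trib2 rose from 24.0 ± 0.309 to 37.1 ± 0.928 and 35.8 ± 2.99. Trib3 fell from 38.3 ± 2.66 to 14.8 ± 1.54 and 17.4 ± 1.22 CPM. The log2 changes were 0.54 ± 0.04, 0.60 ± 0.07 and -1.26 ± 0.07 in vehicle, and 0.56 ± 0.04, 0.96 ± 0.08 and -1.05 ± 0.06 with IFNγ. All 6 calls held with the populations summed, unlike that of Cop1 itself (adjusted p = 0.413 in vehicle), whose level differed between the guides.

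Genes commonly read as output of ERK and ETS factors moved mostly upward with Cop1 loss in vehicle. Of 23, the test called 15 higher and 4 lower in vehicle, 82.6% beside 35.8% of all genes, with a median log2 change of 0.33 beside -0.01. Plau, the urokinase gene with an ETS and AP-1 enhancer, rose from 159 ± 1.87 CPM to 625 ± 17.5 and 481 ± 22.5 (1.79 ± 0.03). Dusp6, the ERK phosphatase and a known ETS target, rose from 143 ± 1.62 CPM to 249 ± 4.8 and 229.5 ± 1.31 (0.74 ± 0.03). Among the 4 lower in vehicle were Dusp4 (-0.35 ± 0.03), Egr1 (-0.358 ± 0.085) and Mmp14 (-0.11 ± 0.03). The calls of Egr1 and Mmp14 ended with the populations summed. Dusp4 was lower with IFNγ too (-0.55 ± 0.03). With IFNγ 10 were higher and 7 lower, 73.9% beside 40.6% of all genes, with Dusp6 at 0.57 ± 0.03 and the immediate early gene Egr1 at -1.51 ± 0.06. The list holds targets of AP-1 as well as of ETS factors, and was drawn up with earlier results of these data known.

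The IFNγ response of these output genes was called lower in Cop1-guide cells for 13 of 23 and higher for none. Of all genes tested, 2.36% were called lower and 3.38% higher in this interaction. The interaction was -1.16 ± 0.11 for Egr1, -0.55 ± 0.04 for Ier3 and -0.37 ± 0.04 for the protease gene Mmp3 (adjusted p = 2.3e-10, 1.51e-14 and 6.37e-09). In Rosa26 cells Egr1 itself rose by 2.12 ± 0.08 with IFNγ, and in Cop1-guide cells by 0.96 ± 0.07. With the populations summed these 3 interactions were -1.14, -0.54 and -0.37 in the same order. That fit has 1 Rosa26 sample per treatment and is too small to decide an interaction. For Dusp6 the interaction was -0.17 ± 0.04 (adjusted p = 0.00495), and its call ended without Rosa26 vehicle replicate 2. With the populations summed it was -0.18.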

How the data were processed

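The authors deposited 1 table of whole-number counts per gene for the 12 libraries, not normalized. Per the submitters' processing notes, the tools were STAR 2.4.0, HTSeq and DESeq2 1.10, with the genome build mm10. Per the labels' protocols, libraries were made from total RNA with an Illumina TruSeq kit. The sources used here do not give the strand setting, the annotation or the treatment of multiply aligned reads. The table's last row, a total that matched the sum of the genes in 11 of 12 libraries and exceeded it by 360 counts in the other, entered neither library sizes nor tests.

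Counts were tested with edgeR 4.0.16 (R 4.3.3): TMM normalization, filterByExpr (minimum count 10, minimum total 15), and the robust quasi-likelihood F test on 1 model with 6 group means. Both guides weigh equally in Cop1 loss. P-values were Benjamini-Hochberg adjusted over 11904 genes. The low-count filter removed at most 0.0267% of a library's counts. Beyond counting noise, replicates varied by 3.21% (coefficient of variation), so small changes are called. The 2 libraries of every group differed by more than sampling noise (chi-square per degree of freedom 2.33 to 4.21) and were kept apart. Levels are CPM. Exon lengths and positions come from GENCODE M21. The code was tested on simulated counts. Motifs were searched on both strands in RefSeq promoter windows.

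The members, gene lists and tests were chosen with earlier results of these data known. The text names all 10 members, up to 3 called genes per list and direction by smallest p, Cop1 and Dusp6, and the 3 genes most correlated with each of the 2 members of widest range. Family genes with few or no counts, Irf1 as the example of the treatment check, and the values of Ehf in every library were chosen after their values were seen. Alternatives were DESeq2 1.42.0, other size factors, no filter, other samples in the fit, a replicate block, each library left out, and populations summed.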

Additional observations from a re-analysis of the deposited data

Results flagged for a closer look

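The IFNγ response of Elf3 in Cop1-guide cells minus that in Rosa26 cells was -0.52 on the log2 scale, and a test of this difference drew attention to it (edgeR, adjusted p = 0.007). Elf3 was higher with IFNγ in 2 of 2 Rosa26 libraries than in any vehicle library, while the 4 treated Cop1-guide libraries lay within the range of the 4 untreated ones. DESeq2 gave the same difference as -0.52 ± 0.16 with an unadjusted p of 0.000935 and no adjusted p.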

How the results depend on the processing

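All 22 called results of the 10 genes kept their direction in 260 alternative values, and 227 of these were still called. For the 30 results that were not called in the comparisons of Cop1 loss, IFNγ and their interaction, 407 alternative values were computed, of which 4 were called and 24 had the other sign. Alternatives were not run for uncalled differences between the guides. With the libraries of each population summed, called genes numbered 1 for Cop1 loss in vehicle, 2 with IFNγ, 2 for IFNγ in Rosa26 cells, 1 for IFNγ in Cop1-guide cells and 0 for the interaction, where edgeR called 0 of all genes; this fit has fewer samples. In the summed fit Rosa26 had 1 sample per treatment, so the spread came from the guides alone. DESeq2 called 0 between the guides with IFNγ and gave no count for the interaction, as Elf3 had no adjusted p. Leaving out single libraries gave 0 to 1 for the interaction and 0 to 0 between the guides with IFNγ. Among the alternatives run, sign changes were confined to results near 0 that were not called, and the cause was not tested. With only the compared groups in the fit, Ets1 in vehicle was at 0.002. Without single libraries the log2 change of Cop1 loss in vehicle ran from -0.028 to 0.021 for Ets1, -0.047 to 0.014 for Etv1, -0.019 to 0.034 for Etv4, -0.006 to 0.072 for Elk3 and -0.003 to 0.093 for Gabpa. With IFNγ it ran from -0.02 to 0.035 for Erf and -0.004 to 0.035 for Etv1. The IFNγ response in Cop1-guide cells ran from -0.022 to 0.031 for Ets2, -0.054 to 0.079 for Elf3 and -0.024 to 0.031 for Erf, that in Rosa26 cells from -0.018 to 0.113 for Etv6, and the interaction of Gabpa from -0.013 to 0.083. A replicate block left the counts at 2, 4, 7, 6, 1, 1 and 1; same-numbered libraries did not deviate together (r from -0.052 to 0.0782 over 15 pairs of groups), so the numbers were not taken to pair the samples. Elf3 had 268 to 559 counts per library, the fewest of the 10 genes, which limits its precision.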
